A study of Mus musculus with 12 samples.

Results

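The 32 genes described here belong to the unfolded protein response and the integrated stress response, and were chosen by name among the 54146 genes of the deposited expression table. All 32 were found by symbol, and 31 were tested. Sesn2, a stress-induced inhibitor of growth signalling, was listed at 0 in 10 of the 12 libraries and reached at most 0.41 TPM, so it stayed below the level needed for a test. The libraries came from D2A1 cells, a mouse mammary tumour line, sorted from the lungs of female mice 6 to 8 weeks of age at 12 to 14 days after they had been injected through the tail vein. The injected cells held a doxycycline-inducible H2B-GFP, a fluorescent histone, and had been stained with CellVue Claret, a membrane dye that thins out with each division. Dye-positive cells were the dormant group and dye-negative cells the growing group. The hosts were labelled WT or Tgfbr2 KO. The study calls the hosts of the sorted cells WT in one place and flox controls in another, so whether the WT hosts carried the floxed gene is not settled here. In the KO hosts the floxed Tgfbr2 gene, which encodes a receptor for transforming growth factor beta, was deleted by Cre under the Lysozyme 2 promoter, so that the deletion lies in the host's myeloid cells while the tumour cells themselves were the same in all groups. This gave 4 groups of 3 libraries each: dormant WT and growing WT, and dormant KO and growing KO. Each library was made from an aliquot of 50 sorted cells. The study describes biological triplicates from as many mice per group, while the labels do not tie libraries to mice or say whether a dormant and a growing library share one. By their names the WT libraries used here were of library batch 1 and the KO libraries of library batch 2. The table also holds columns named as WT of batch 2, which match no labelled sample and were not used here, so that in the comparisons of hosts made here host and batch cannot be told apart.

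Secreted and membrane proteins fold in the endoplasmic reticulum (ER), where chaperones and disulfide isomerases act on them. When unfolded proteins build up, the sensors Ern1 (IRE1), Eif2ak3 (PERK) and Atf6 set off the unfolded protein response. Ern1 splices the mRNA of Xbp1, Atf6 is cut to release a transcription factor, and Eif2ak3 slows translation while favouring that of Atf4, the step shared with the integrated stress response. The resulting factors raise transcription of chaperones, of ER-associated degradation genes and of amino acid supply genes. Splicing, cleavage and translation are not seen in gene-level mRNA values, so the levels below are of transcripts only.

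The promoters are shown first because several, though not all, of the folding genes called below hold a stress response element. The 32 genes were chosen in part as targets of stress factors, so the share of such elements among them is not independent of the choice. Promoter windows of 300 bases, from 250 before to 50 after the annotated start, were taken from RefSeq on GRCm38.p6. They were found for 28 of the 32 genes, all but Hyou1, Manf, Atf6 and Sec61a1. The ER stress response element (ERSE) was searched on both strands as CCAAT and CCACG with any 9 bases between them. It was present in 7 of the 28 genes with a window (25.0%), against 37 of all 27025 genes with a window (0.137%). The 7 genes were Hspa5, Hsp90b1, Calr, Canx, Pdia6, Creld2 and Dnajc3, with 8 copies in all since Hsp90b1 held 2. The copies lay between 212 and 47 bases before the RefSeq start. Gene coordinates given below are from GENCODE, whose starts can differ from these. For Hspa5 the GENCODE gene begins at 34771970, so its ERSE (within chr2:34772013-34772055) lies inside that gene. The window of Hspa5, which encodes the chaperone BiP, is given whole (chr2:34771840-34772139, plus strand), with its ERSE in capitals.
Hspa5: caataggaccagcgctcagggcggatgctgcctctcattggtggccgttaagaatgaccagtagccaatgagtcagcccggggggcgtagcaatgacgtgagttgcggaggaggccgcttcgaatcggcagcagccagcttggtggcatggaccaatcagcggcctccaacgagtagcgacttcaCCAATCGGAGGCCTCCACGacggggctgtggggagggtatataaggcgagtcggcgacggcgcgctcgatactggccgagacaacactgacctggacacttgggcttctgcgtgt

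Stretches around the ERSE of other genes are given in the direction of each gene to show how the 9 spacer bases differ while both ends of the motif are fixed by the search. Capitals mark the motif, and where it lies on the opposite strand it reads as its reverse complement. The coordinates are chr10:86705521-86705563 for the nearer copy of Hsp90b1, chr8:84847063-84847105 for Calr, chr11:50325788-50325830 for Canx, and chr12:17266479-17266521 for Pdia6. The first 3 genes are on the minus strand and Pdia6 on the plus strand.
Hsp90b1: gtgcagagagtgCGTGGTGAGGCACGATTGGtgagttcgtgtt
Calr: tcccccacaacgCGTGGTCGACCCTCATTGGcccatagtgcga
Canx: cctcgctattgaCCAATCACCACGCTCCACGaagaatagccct
Pdia6: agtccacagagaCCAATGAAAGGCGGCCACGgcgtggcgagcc

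Of the other motifs searched on both strands, ERSE-II (ATTGG, any 1 base, then CCACG) was in the windows of Dnajb11 and Herpud1, 7.14% of the 28 genes against 0.0444% of all genes with a window. The core of the element bound by Xbp1 (TGACGTGG) was in none of the 28, against 0.714% of all genes. The core of the element bound by Atf4 (TGATGNAA) was in Asns, Chac1, Trib3 and Herpud1, 14.3% against 4.51%. No match of one motif overlapped a match of another in these windows. A match only says that these letters are present, and their absence only that they are not in this window.
Asns (chr6:7693213-7693244, minus strand): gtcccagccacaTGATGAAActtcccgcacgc
Chac1 (chr2:119351037-119351068, plus strand): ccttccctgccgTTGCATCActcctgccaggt

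**Figure D1:**
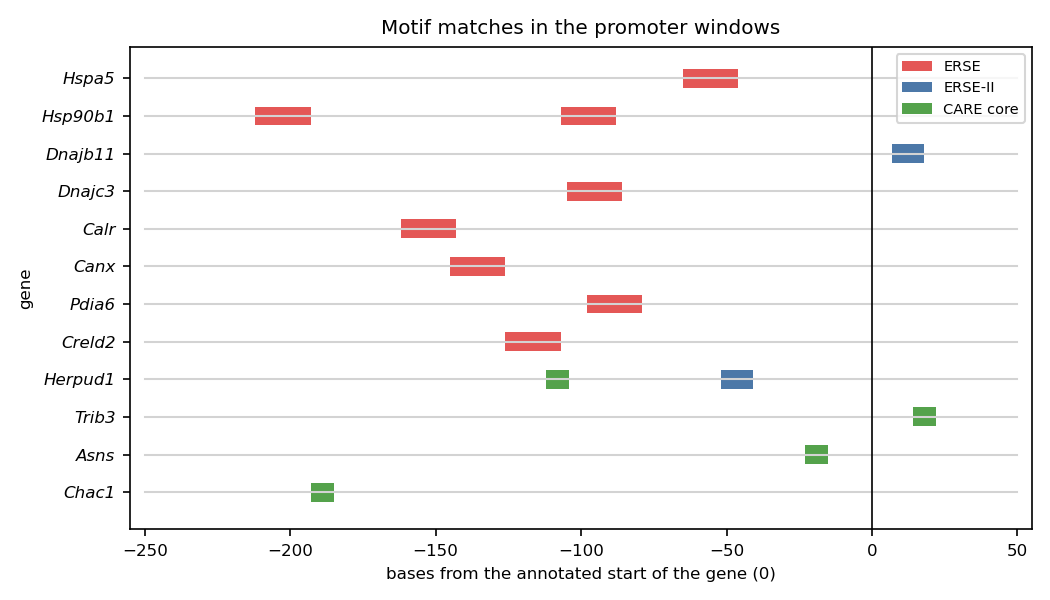
Motif matches in the promoter windows of 12 genes, by distance in bases from the start annotated by RefSeq (0), with negative values before it. Bars mark ERSE, ERSE-II and the Atf4-type core. All 8 ERSE copies lie before the RefSeq start, between 212 and 47 bases from it.

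Values are in TPM, a transcript level divided by gene length and scaled to the same total in each library, so levels can be compared between genes but a change in a few abundant genes moves all others. The number of reads behind a value is unknown. Before the comparisons, the libraries were checked against their labels. A list of 10 tumour line genes summed to between 2128 and 2677 TPM for dormant KO, with 7 genes at 1 TPM or more in all 3 libraries, and to between 31880 and 43890 TPM in the other 9 libraries, so the dormant KO libraries stood apart. Spp1, the leading transcript of the list, was at 1235.89, 1508.76 and 1426.63 TPM for dormant KO and at 28979.98 TPM or more elsewhere, and Akr1c18 was at 12.78, 11.63 and 22.87 TPM against 1309.18 TPM or more. Krt8, Krt18 and Vim were above 50 TPM in all 12 libraries, and Ibsp was listed at 0 throughout dormant WT. Krt19, also on the mesothelial list, went the other way, at 267.29, 418.3 and 252.04 TPM for dormant KO and at most 14.16 TPM elsewhere. Epcam stood at 3.42, 0.27 and 5.34 TPM for dormant KO and at no more than 1.12 TPM in the other libraries. A list of 12 alveolar type 2 cell genes summed to between 40290 and 42600 TPM in the dormant KO libraries, with 10 genes at 1 TPM or more in all 3 libraries. It summed to between 77.53 and 141.3 TPM among dormant WT libraries, 56.13 and 97.59 in the growing WT libraries, and 466.6 and 472.8 in the growing KO libraries. A list of 15 macrophage genes summed to between 3918 and 4330 TPM in the dormant KO libraries and 2052 and 2244 in dormant WT, against 104.4 to 120.4 in growing WT with 257.9 to 287.9 for growing KO. Most of the dormant KO sum was Lyz2, with a mean of 2898 TPM against 1080 for dormant WT, while C1qa (129.2 against 218.6), C1qb (155.6 against 233.3), C1qc (163.7 against 222.3) and Mrc1 (12.48 against 25.19) had lower means for dormant KO. Erythroid genes summed to between 50880 and 56300 TPM for dormant KO and to at most 13170 elsewhere, mesothelial genes to between 12450 and 13980 against at most 515.3, club and ciliated cell genes to between 2000 and 2533 against at most 1199, and endothelial genes to between 1141 and 1156 against at most 148.4. Plasma cells, which are rich in ER, were read by 12 genes, Xbp1 among them, that summed to between 1126 and 1312 TPM for dormant KO and to at most 545.6 in any other library. Most of that sum was the light chain Igkc, at 956.31, 927.69 and 1028.25 TPM. Of the 12, 7 were at 1 TPM or more in all 3 dormant KO libraries and none was listed at 0 in all 3. Jchain (44.63, 90.77 and 76.46 TPM) and Mzb1 (27.67, 34.15 and 35.34 TPM) were higher there than in any other library, whereas Sdc1 (3.72, 1.02 and 8.83 TPM), Prdm1 (at most 0.33 TPM) and Igha (at most 0.04 TPM) were not. In the growing libraries Sdc1 was at 21.2 TPM or more and Prdm1 at 1.82 TPM or more. In dormant WT 5 were listed at 0 in all 3 libraries (Mzb1, Tnfrsf17, Pou2af1, Irf4 and Derl3). The part of these other cells in the results below was not tested. In bulk RNA, fewer cells that express a gene and less RNA per cell cannot be told apart.

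The 32 genes together took 0.484% ± 0.031 (SD, n = 3) of TPM among dormant WT libraries, 0.343% ± 0.027 in dormant KO, 0.482% ± 0.014 in growing WT, whereas growing KO had 0.546% ± 0.016. The highest dormant KO library (0.37%) lay below the lowest of the other 9 (0.448%). The most abundant gene by mean level was Sec61b, a subunit of the channel through which new proteins enter the ER, at between 772.88 and 1192.35 TPM in all 12 libraries. Hspa5 was the next in both growing groups and in dormant WT. The sensors were scarce, with Ern1, Eif2ak3 and Atf6 together between 3.8 and 47.62 TPM. In growing WT, Ern1 was at 0.87, 1.32 and 3.72 TPM and Eif2ak3 at 1.76, 2.56 and 0.02 TPM. In growing KO, Ern1 was at 0.31, 2.44 and 0.58 TPM and Eif2ak3 at 0, 2.27 and 0.28 TPM, so that both sensors stayed near the limit for a test in the growing groups. Between 0 and 4 of the 32 genes were listed at 0 in a library, the most in dormant WT replicate 3. Dormant WT libraries were also the most variable. The median SD within the group on the log2(TPM + 1) scale over the 31 tested genes was 0.574 in dormant WT, 0.436 in dormant KO, 0.192 in growing WT, and that of growing KO was 0.209. Over all 13002 tested genes it was 0.999, 0.570, 0.342 and 0.440. The main fit shared 1 estimate of spread per gene over all 4 groups. The SE and adjusted p given below therefore do not measure the spread of the dormant groups alone.

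**Figure D2:**
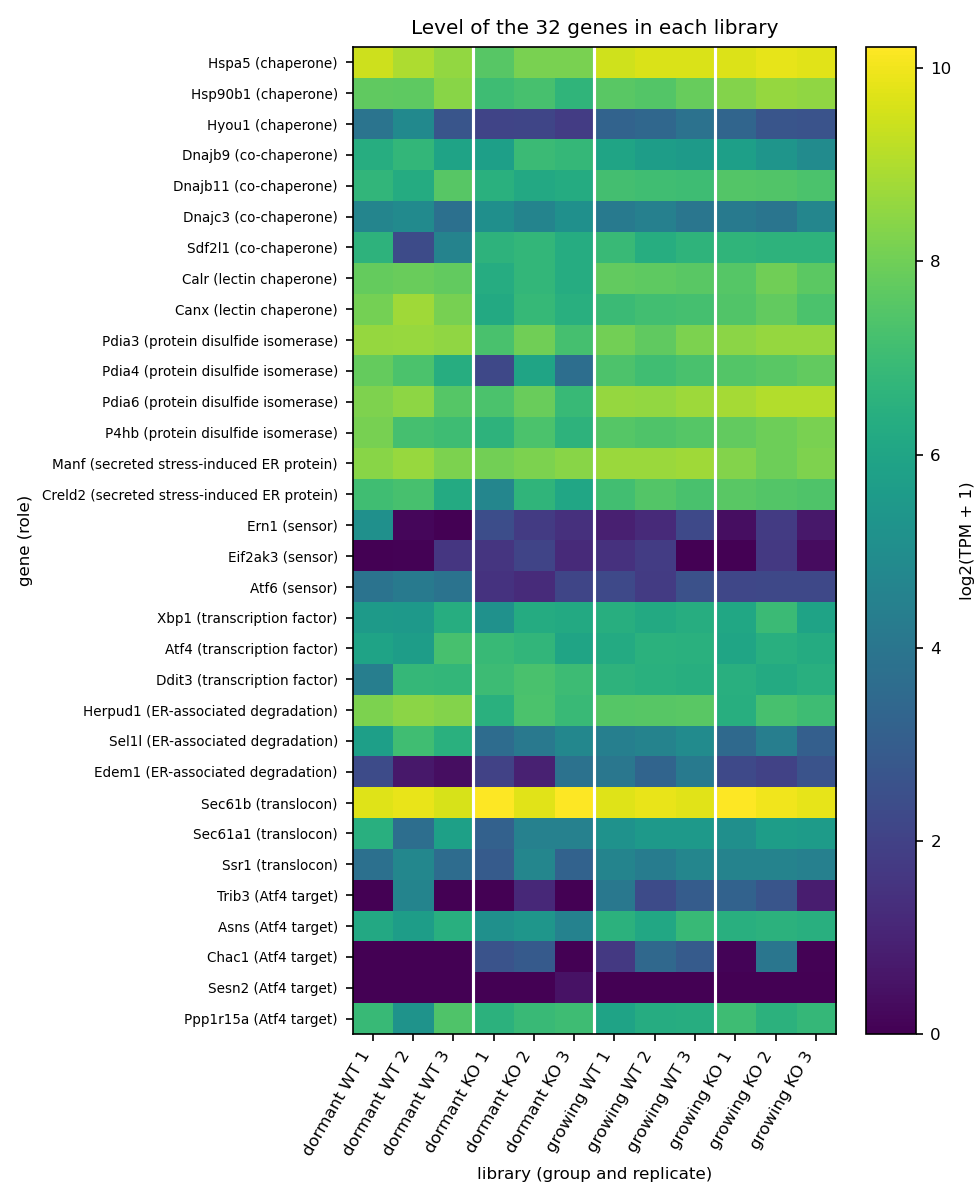
Level of the 32 genes as log2(TPM + 1), colour scale, in the 12 libraries (columns, by group and replicate) with rows ordered by role. Sec61b is bright throughout, the sensors are dark, and most rows of chaperones and disulfide isomerases are darker in the 3 dormant KO columns, most of all Pdia4 in replicates 1 and 3.

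KO and WT hosts were compared in dormant cells, to ask how the dormant cells differ when host myeloid cells lack Tgfbr2. Of the 15 genes for folding and its secreted partners 6 were lower in dormant KO, and of the 3 for ER-associated degradation 2. None of the 4 co-chaperones was called, and 3 of them had a positive difference. Of the 31 genes tested, 10 were called lower, 0 higher and 21 were not called by limma (adjusted p of at most 0.05 over all 13002 genes and a difference of at least 1 on the log2(TPM + 1) scale). The 10 were the chaperones Hspa5 and Hyou1, the lectin chaperones Calr and Canx, the isomerases Pdia3 and Pdia4, the sensor Atf6, the degradation genes Herpud1 and Sel1l, and the amino acid gene Asns. Over all genes 9.39% were called lower and 12.9% higher, 22.3% in either direction, so that 10 of 31 (32.3%) lower stands above this background and 0 of 31 higher below it. Libraries of the groups did not overlap for 11 genes lower and 2 higher in dormant KO, where 13.0% and 18.6% of all genes did so. The median difference of the 31 genes was -0.60, beside 0.17 for all genes tested. The dormant KO libraries of this comparison are those with the low tumour line sum and the high sums of other cells given above, and the part of that difference in these calls was not tested.

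Hspa5 (BiP, chromosome 2, 34771970 to 34777547, plus strand, GRCm38), the main ER chaperone and a brake on the 3 sensors, was at 186.57, 283.58 and 283.26 TPM in the dormant KO libraries and at 689.15, 504.11 and 374.27 TPM among dormant WT libraries. All 3 dormant KO libraries lay below all dormant WT libraries. The log2 difference was -1.04 ± 0.221 (SE, adjusted p 0.00511 by limma). It was -0.81 without dormant WT replicate 1 and -0.84 without dormant KO replicate 1, both short of the minimum difference. The call of Hspa5 was kept in 18 of 24 alternative settings and left-out libraries. It was also lost with median-ratio scaling, quantile normalization and a fit of only these 2 groups. Rescaling without haemoglobin, surfactant, secretoglobin and mitochondrial genes lost it too. Over all 24 the difference ranged from -1.25 to -0.52, with adjusted p up to 0.0833. Hsp90b1, the ER form of Hsp90, was at 132.87, 149.78 and 103.47 TPM in the dormant KO libraries and at 213.59, 207.50 and 335.16 TPM among dormant WT libraries. Its libraries did not overlap, but its difference of -0.94 (adjusted p 0.0122) was below the minimum size. Hyou1, which exchanges nucleotide on Hspa5, was at no more than 3.43 TPM in the dormant KO libraries and at 14.12, 27.5 and 5.5 TPM among dormant WT libraries, a difference of -1.79 (adjusted p 0.0450). This call was lost in 11 of the 12 fits made without 1 library each, all but that without dormant WT replicate 3, with adjusted p between 0.0577 and 0.117.

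The lectin chaperones hold glycoproteins while they fold. Canx (chromosome 11, 50293961 to 50325673, minus strand), the membrane-bound one, was at 73.03, 114.94 and 86.31 TPM in the dormant KO libraries and at 266.99, 433.87 and 279.37 TPM among dormant WT libraries. This difference of -1.82 ± 0.258 (SE, adjusted p 0.000362 by limma) was called under each of the 24 alternative settings and left-out libraries. Calr, its soluble partner, was at 79.67, 109.04 and 79.91 TPM against 223.12, 238.49 and 214.71 TPM, a difference of -1.34 (adjusted p 0.000701). The dormant WT libraries of both genes lay wholly above those of dormant KO.

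The isomerases form and rearrange disulfide bonds. Pdia4 (chromosome 6, 47796141 to 47813430, minus strand) had the largest difference of the 31 genes, at 3.63, 60.77 and 11.82 TPM in the dormant KO libraries and 223.74, 157.86 and 82.70 TPM among dormant WT libraries. It differed by -3.22 ± 0.728 (SE, adjusted p 0.00696), and dormant KO replicate 2 was the closest to dormant WT. Of the 24 alternatives, the fit of only these 2 groups lost the call (adjusted p 0.102). Pdia3, which works with the lectin chaperones, was at 156.13, 256.29 and 146.72 TPM against 382.74, 393.53 and 366.25 TPM, a difference of -1.07 (adjusted p 0.00415). That of Pdia3 fell short of the minimum size without dormant KO replicate 1 (-0.97) or 3 (-0.92). The call of Pdia3 was kept in 18 of the 24. It was also lost with median-ratio scaling, quantile normalization and array weights. Rescaling without haemoglobin, surfactant, secretoglobin and mitochondrial genes lost it too, and its adjusted p over all 24 reached 0.0753. Pdia6 and P4hb had differences of -0.72 and -0.60 (adjusted p 0.0894 and 0.182), and their libraries overlapped.

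Among sensors, Atf6 (chromosome 1, 170704674 to 170867771 on the minus strand) stood at 1.85, 1.38 and 3.38 TPM in the dormant KO libraries and 13.87, 17.30 and 14.02 TPM among dormant WT libraries. The difference of -2.37 ± 0.478 (SE, adjusted p 0.00361 by limma) rested on wholly separate groups. It was called in 22 of the 24 alternatives, but not in a fit of only these 2 groups (adjusted p 0.0517) or with array weights (adjusted p 0.0677). Ern1 was at 33.74, 0.12 and 0 TPM for dormant WT against 4.36, 2.45 and 1.66 TPM in the dormant KO libraries (0.11, adjusted p 0.968), so that dormant WT replicate 1 alone held a high value. Without that library Ern1 was called higher in dormant KO (1.79), and so was the co-chaperone Sdf2l1. Eif2ak3 was at 2.02, 3.24 and 1.32 TPM for dormant KO against 0.01, 0.04 and 2.05 TPM (1.07, adjusted p 0.271), with overlapping groups. Low values such as these are imprecise. Their interval of difference ran from -2.37 to 2.60 for Ern1 and from -0.34 to 2.49 for Eif2ak3.

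None of the transcription factors was called. Xbp1 was at 34.53, 77.34 and 72.64 TPM in the dormant KO libraries and 47.12, 44.17 and 80.74 TPM among dormant WT libraries, a difference of 0.07 with a 95% interval from -0.83 to 0.97. Atf4 was at 117.62, 105.55 and 61.93 TPM against 60.42, 50.42 and 150.84 TPM, a difference of 0.24 (SE 0.411, adjusted p 0.728). Ddit3 (CHOP), which promotes cell death under lasting stress, was at 125.88, 155.75 and 127.41 TPM against 19.99, 111.86 and 107.63 TPM. The groups of Ddit3 did not overlap, but the difference of 1.1 had an adjusted p of 0.161, and dormant WT replicate 1 was far below the other 2. In GENCODE M21, Ddit3 overlaps another entry of the same name on its own strand, with which reads may be shared. It also overlaps Mars and Gm4189 on the opposite strand. Since no source used here says whether strand was counted, reads may be shared with these too.

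Herpud1 and Sel1l, parts of the complex that passes misfolded proteins back to the cytosol, were called lower. Sel1l (chromosome 12, 91806043 to 91849157 on the minus strand) stood at 11.1, 16.5 and 25.63 TPM in the dormant KO libraries and at 53.07, 133.25 and 89.71 TPM among dormant WT libraries, a difference of -2.29 ± 0.501 (SE, adjusted p 0.00588 by limma). Herpud1 was at 89.27, 160.91 and 119.58 TPM against 293.76, 342.72 and 316.82 TPM (-1.40, adjusted p 0.00293). For both genes all dormant WT libraries lay above all dormant KO libraries. Edem1, which trims glycans of proteins bound for degradation, was at 3.02, 0.89 and 13.27 TPM against 3.99, 0.58 and 0.31 TPM (1.13, adjusted p 0.340). None of the translocation genes Sec61b, Sec61a1 and Ssr1 was called, with differences of 0.33, -1.27 and -0.41.

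Of the Atf4 targets, only Asns, which makes asparagine, was called, at 33.70, 40.10 and 22.23 TPM in the dormant KO libraries and 71.59, 50.46 and 86.52 TPM among dormant WT libraries (-1.1, adjusted p 0.0349). This call of Asns was lost in 8 of the 12 fits made without 1 library each, with adjusted p from 0.0519 to 0.117, and was kept without dormant WT replicate 2, dormant KO replicate 2, or growing WT replicate 2 or 3. Chac1, which degrades glutathione, was listed at 0 throughout dormant WT, with 5.07, 6.49 and 0.02 TPM in the dormant KO libraries (adjusted p 0.249). Trib3 was listed at 0 in 2 libraries of each dormant group. Ppp1r15a, which restores translation after stress, had a difference of 0.34 (adjusted p 0.657).

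The scaling of the libraries bore on how many genes were called. With median-ratio scaling the median difference of all genes was 0.52 and that of the 31 genes -0.09, and 4 were called lower (Canx, Pdia4, Atf6 and Sel1l) and 1 higher (Sdf2l1), against 6.15% and 17.6% of all genes under that scaling. The gap between the 2 medians was -0.77 on TPM as deposited, -0.61 with median-ratio scaling and -0.38 with quantile normalization, which called 7 lower and 1 higher (Sdf2l1) against 11.6% of all genes in each direction. The 10 genes called lower on TPM had a negative difference under every one of the 24 alternatives.

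**Figure D3:**
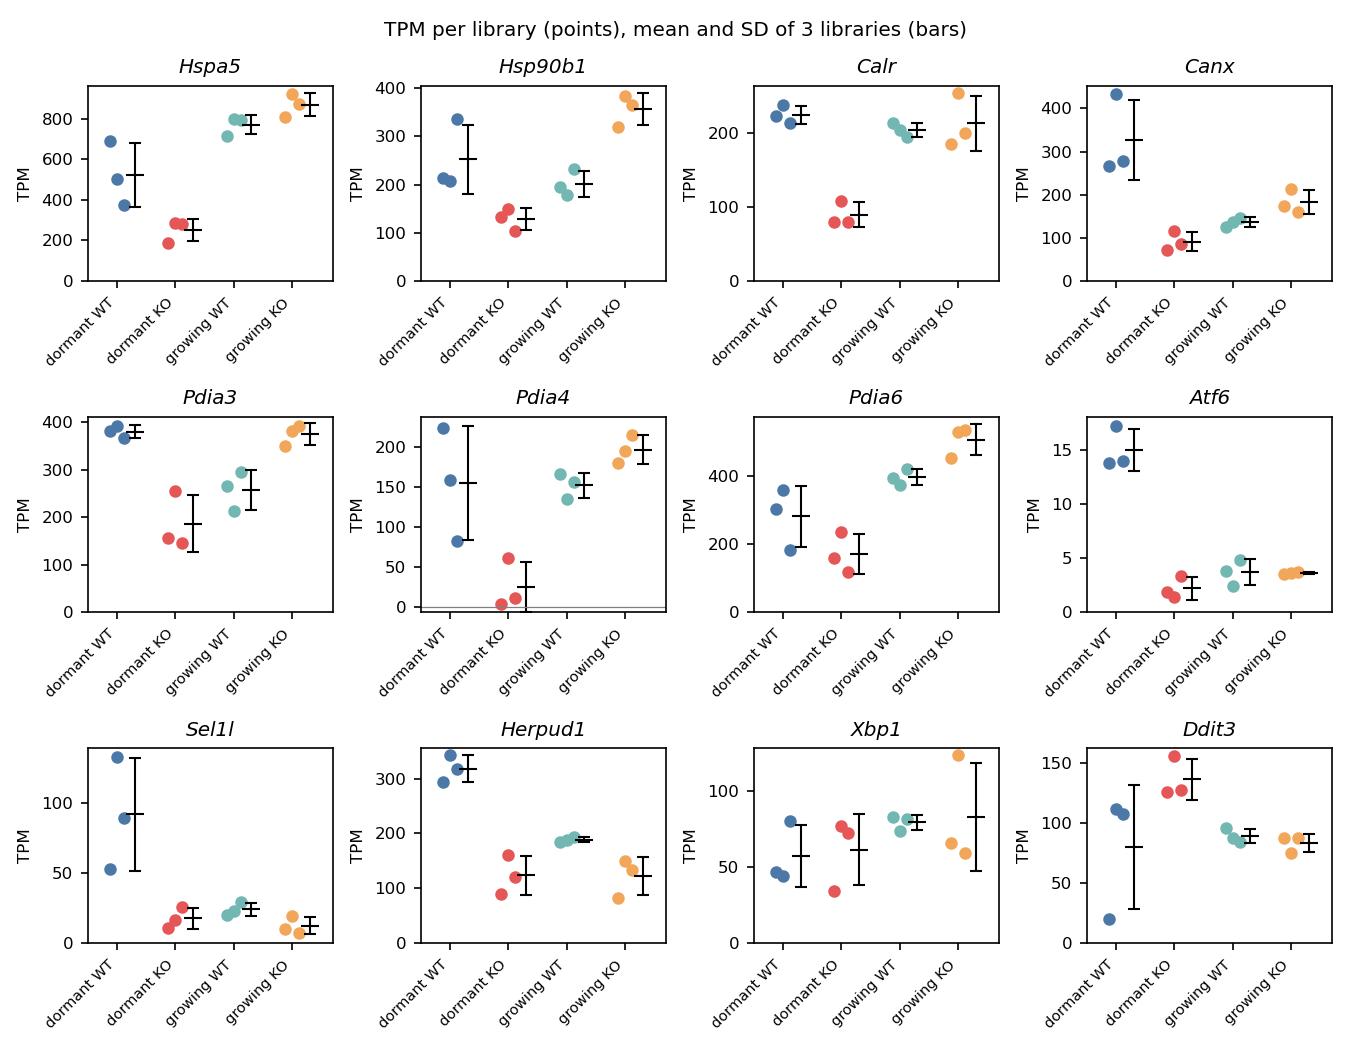
TPM (vertical axis, linear) of 12 genes in each library (points) of the 4 groups, with the mean and SD of 3 libraries (black). Hspa5 sits between 186.57 and 283.58 TPM in the dormant KO libraries and at 374.27 TPM or more elsewhere, Atf6 and Sel1l stand high in dormant WT alone, and the groups overlap for Xbp1.

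The same comparison of hosts was made in growing cells. Here 0 of the 31 genes were called, and 4 had an unadjusted p under 0.05 (Hsp90b1, Pdia3, Manf and Herpud1). The background was low too, with 0.977% of all genes called in either direction, 0.715% higher and 0.261% lower. Libraries did not overlap for 9 genes higher and 4 lower in growing KO, where 13.3% and 10.6% of all genes did so, and all 4 isomerases were among the 9. The median difference was 0.00, beside 0.02 for all genes. Hspa5 was at 809.34, 921.28 and 872.33 TPM in the growing KO libraries and 716.44, 799.84 and 793.43 TPM in the growing WT libraries. These values of Hspa5 did not overlap but differed by only 0.17, with a 95% interval from -0.31 to 0.66. The largest gap among the folding genes was that of Hsp90b1, at 320.37, 384.66 and 365.99 TPM in the growing KO libraries against 195.44, 178.02 and 231.78 TPM in the growing WT libraries (0.82, adjusted p 0.204 by limma). Edem1 had the largest difference of all 31 in size, at 3.84, 3.02 and 5.06 TPM against 15.56, 8.86 and 17.07 TPM (-1.55, adjusted p 0.764).

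**Figure D4:**
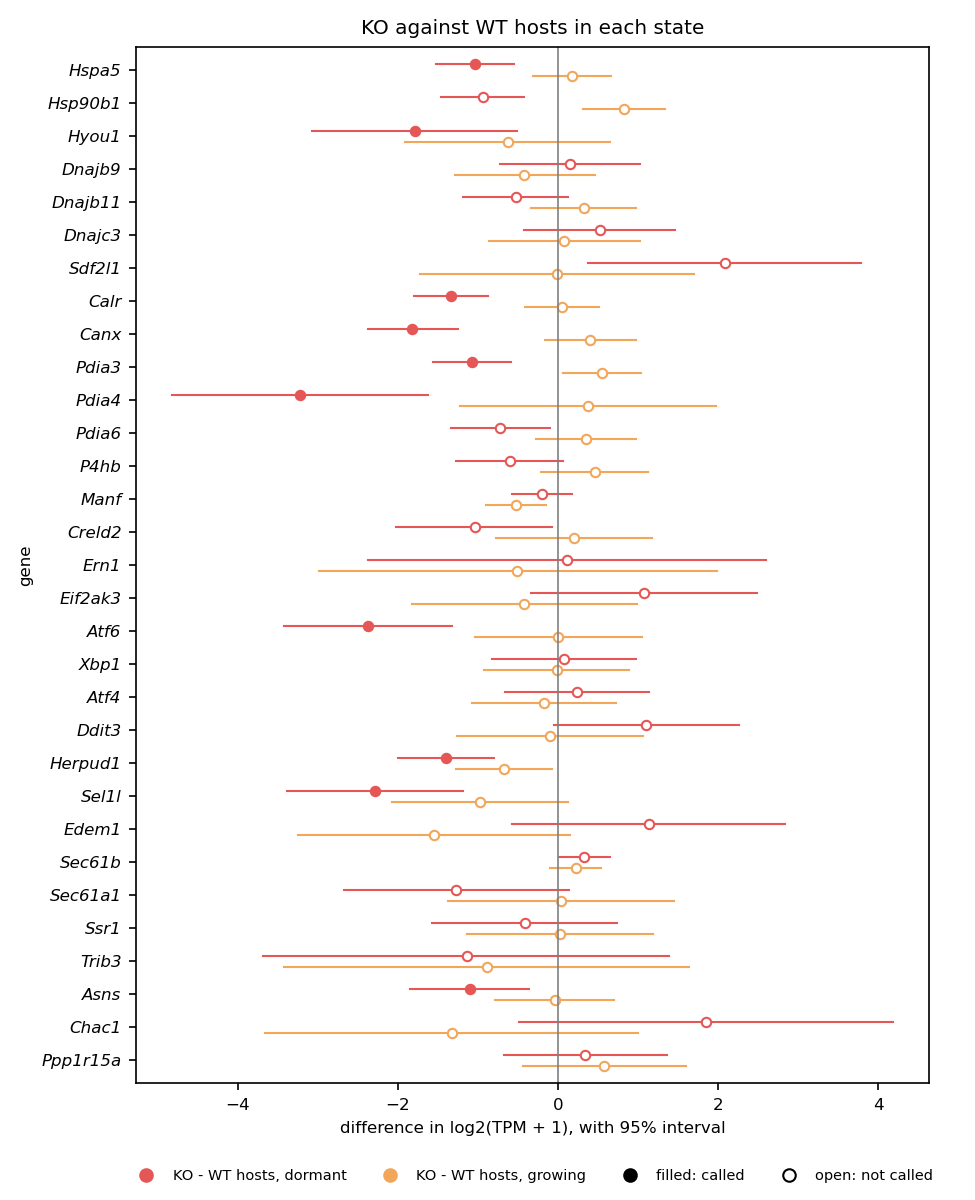
Difference between KO and WT hosts in log2(TPM + 1), with 95% intervals, for the 31 tested genes in dormant (red) and growing (orange) libraries. Filled points were called. In dormant libraries 10 genes are filled, all to the left of 0, and in growing libraries none is filled.

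The next comparison set dormant WT against growing WT, both of library batch 1. Of the 31 genes 3 were called higher in dormant WT and 0 lower, and Canx was the only folding gene among them. The other 2 were Atf6 and Sel1l. Of all genes 1.85% were called higher and 5.67% lower, 7.51% in all. Libraries did not overlap for 6 genes higher and 5 lower, where 7.22% and 19.4% of all genes did so. Canx was at 125.42, 137.73 and 147.22 TPM in the growing WT libraries, below all dormant WT libraries (difference 1.22 ± 0.258, adjusted p 0.0148 by limma). The call of Canx was lost without growing WT replicate 1 or 2 (adjusted p 0.0628 and 0.0550), and without dormant WT replicate 2 (0.0228, with a difference just under the minimum). Atf6 was at 3.82, 2.46 and 4.83 TPM in the growing WT libraries (1.80, adjusted p 0.0403) and Sel1l at 20.32, 22.96 and 29.10 TPM (1.81, adjusted p 0.0475). Those calls of Atf6 and Sel1l were lost in 8 and 10 of the 12 fits made without 1 library each, including each without a growing WT library, with adjusted p up to 0.155. With the replicate number as a block none of the 3 was called, with an adjusted p of 0.0505 for Canx.

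The other genes gave values without calls. Hspa5 had a difference of -0.60 (adjusted p 0.120), and its dormant WT libraries all lay below the growing WT libraries. Sdf2l1, a partner of the co-chaperone Dnajb11, was at 96.13, 4.03 and 22.49 TPM among dormant WT libraries against 119.97, 82.00 and 98.14 TPM (-2.15, adjusted p 0.116). Edem1 was at 3.99 TPM or less in dormant WT and at 8.86 TPM or more in growing WT, a difference of -2.72 just short of the threshold (adjusted p 0.0532). Of the transcription factors in growing WT, Xbp1 was at 83.07, 73.69 and 81.85 TPM, Atf4 at 74.07, 90.83 and 88.94 TPM and Ddit3 at 95.48, 87.55 and 84.13 TPM. These values lay within or close to the range of the dormant WT libraries. Ddit3, Atf4 and Xbp1 differed by -0.50, -0.12 and -0.52, with adjusted p of 0.484 or more.

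The matching comparison in KO hosts set dormant KO against growing KO, both of library batch 2. Of the 15 genes for folding and its secreted partners, 10 were called lower in dormant KO. Of the 31 genes, 11 were called lower, 0 higher and 20 were not called, while 9.48% of all genes were called lower and 8.31% higher, 17.8% in all. Libraries did not overlap for 14 genes lower and 1 higher, where 28.3% and 16.4% of all genes did so. The 11 were the chaperones Hspa5 and Hsp90b1, the co-chaperone Dnajb11, both lectin chaperones, all 4 isomerases, Creld2 and Asns. The median difference was -0.57, beside -0.32 for all genes. The same 3 dormant KO libraries enter here, so this comparison and that between dormant groups share them.

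Hspa5 showed the firmest difference, from between 809.34 and 921.28 TPM in the growing KO libraries to between 186.57 and 283.58 TPM in the dormant KO libraries (-1.81 ± 0.221, SE, adjusted p 0.000184 by limma). It was called under all 24 alternatives, as were Pdia4 and Pdia6. Pdia4 went from 179.53, 194.91 and 214.69 TPM in the growing KO libraries to at most 60.77 TPM (-3.67, adjusted p 0.00400), while growing WT had 165.45, 134.26 and 155.33 TPM. Pdia6 was at 452.65, 528.57 and 533.81 TPM in the growing KO libraries and at 159.13, 234.99 and 117.09 TPM in the dormant KO libraries (-1.62, adjusted p 0.00182). Hsp90b1 differed by -1.48 (adjusted p 0.00105), and Calr by -1.25 (adjusted p 0.00148), both with wholly separate groups. For Pdia6 the WT libraries held 301.00, 357.76 and 182.57 TPM when dormant and 393.21, 373.94 and 419.51 TPM when growing. Creld2, a stress-induced protein of the ER that can be secreted, was at 192.94, 176.97 and 170.44 TPM in the growing KO libraries and 25.10, 101.40 and 65.78 TPM in the dormant KO libraries (-1.68, adjusted p 0.0199), beside 136.74, 149.37 and 74.10 TPM for dormant WT and 138.84, 177.96 and 155.25 TPM for growing WT. That call of Creld2 was lost without any 1 of the growing KO libraries (adjusted p 0.0665, 0.0583 and 0.0542). Dnajb11 lost its call without 5 of the 12 libraries in turn (dormant KO replicates 2 and 3 and each growing KO library), P4hb without 4 (dormant KO replicates 1 and 3, growing KO replicates 2 and 3), Canx without 3 (dormant KO replicates 1 and 3, growing KO replicate 2) and Pdia3 without 2 (dormant KO replicates 1 and 3). Their adjusted p in those fits reached 0.0801, 0.0946 and 0.0766 for the first 3, while Pdia3 fell under the minimum difference (-0.95 and -0.90).

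Manf, also secreted under ER stress, was not called, at 321.88, 252.35 and 305.96 TPM in the growing KO libraries and 263.59, 291.00 and 333.64 TPM in the dormant KO libraries, a difference of 0.01 with a 95% interval from -0.36 to 0.39. Of the sensors none was called. Atf6 was at 3.49, 3.64 and 3.7 TPM in the growing KO libraries, above all dormant KO libraries (-0.57, adjusted p 0.460). Of the transcription factors, Ddit3 was at 87.48, 74.65 and 87.48 TPM in the growing KO libraries, below all dormant KO libraries, without a call (0.70, adjusted p 0.407). Xbp1 was at 66.16, 124.14 and 59.41 TPM in the growing KO libraries and Atf4 at 64.13, 85.88 and 76.39 TPM, both overlapping dormant KO. They differed by -0.44 and 0.29 (adjusted p 0.521 and 0.687). Sel1l was at 10.39, 19.64 and 7.49 TPM for growing KO, overlapping dormant KO. Herpud1 and Sel1l, lower in dormant KO than in dormant WT, differed from growing KO by 0.02 and 0.50 (adjusted p 0.980 and 0.550). Dnajb9, a co-chaperone that binds Ern1 and Hspa5, went the other way at 53.10, 123.86 and 109.54 TPM in the dormant KO libraries against 54.12, 39.00 and 29.23 TPM (1.16, adjusted p 0.0652).

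Read beside the promoter sequences above, 6 of the 7 genes with an ERSE were called lower in dormant KO than in growing KO, all but Dnajc3, with a median difference of -1.48. Of the 20 tested genes with a window but no ERSE, 5 were called lower (Dnajb11, Pdia3, Pdia4, P4hb and Asns), with a median of -0.01. None of the 4 genes without a window was called there (median -0.70), and 9.48% of all genes were called lower. Against dormant WT, 3 of the 7 were called lower (Hspa5, Calr and Canx; median -1.04), 5 of the 20 (median 0.09) and 2 of the 4 without a window (Hyou1 and Atf6; median -1.53), beside 9.39% of all genes. Between dormant WT and growing WT, 0 were called lower. There 1 of the 7 was called higher (median 0.14), 1 of the 20 (median -0.18) and 1 of the 4 (median 0.10), beside 1.85% of all genes. Between growing groups 0 were called, with medians of 0.20, -0.07 and -0.26. This is a description of the genes at hand and no test of the element. With median-ratio scaling 3 of the 31 genes were called lower in dormant KO than in growing KO (Hspa5, Pdia4 and Pdia6; all genes 5.07%), with quantile normalization 4 (all genes 7.37%), and after rescaling without haemoglobin, surfactant, secretoglobin and mitochondrial genes 7 (all genes 7.73%), with Dnajb9 called higher in each.

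Whether the dormant against growing difference was itself different between hosts was tested as an interaction, in which the value of WT hosts is taken from that of KO hosts. It carries the difference between the library batches only so far as a batch acts unequally on the 2 states. Of the 31 genes, 7 had a lower value in KO hosts and 0 a higher one, against 3.91% and 6.18% of all genes (10.1% in either direction). The 7 were Hspa5, Hsp90b1, Calr, Canx, Pdia3, Pdia4 and Atf6. Canx had the smallest p, with -2.22 ± 0.365 (SE, adjusted p 0.00322 by limma). With 173.96, 213.85 and 159.50 TPM for growing KO, Canx was called higher in dormant than in growing libraries of WT hosts and lower in those of KO hosts. Hsp90b1 (-1.77, adjusted p 0.00620) and Pdia3 (-1.62, adjusted p 0.00701) were called, like Canx, in all 23 alternatives that could be fitted. Calr (-1.38, adjusted p 0.0119) was called in each fit that left out 1 library and in 20 of the 23. The other 3 were less firm. Hspa5 (-1.21, adjusted p 0.0304) was called in 9 of the 23 alternatives. It lost its call without dormant WT replicate 1, dormant KO replicate 1 or any 1 of the 6 growing libraries, with adjusted p up to 0.0818. Pdia4 (-3.60, adjusted p 0.0474) was called in 6 of the 23 alternatives, and among the 12 fits without 1 library only in those without dormant WT replicate 3 or dormant KO replicate 2. Atf6 (-2.37, adjusted p 0.0464) was called in 8 of the 23, and among those 12 fits only without 1 of the dormant WT libraries or dormant KO replicate 3. With the replicate number within host as a block, 3 of the 7 were called.

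**Figure D5:**
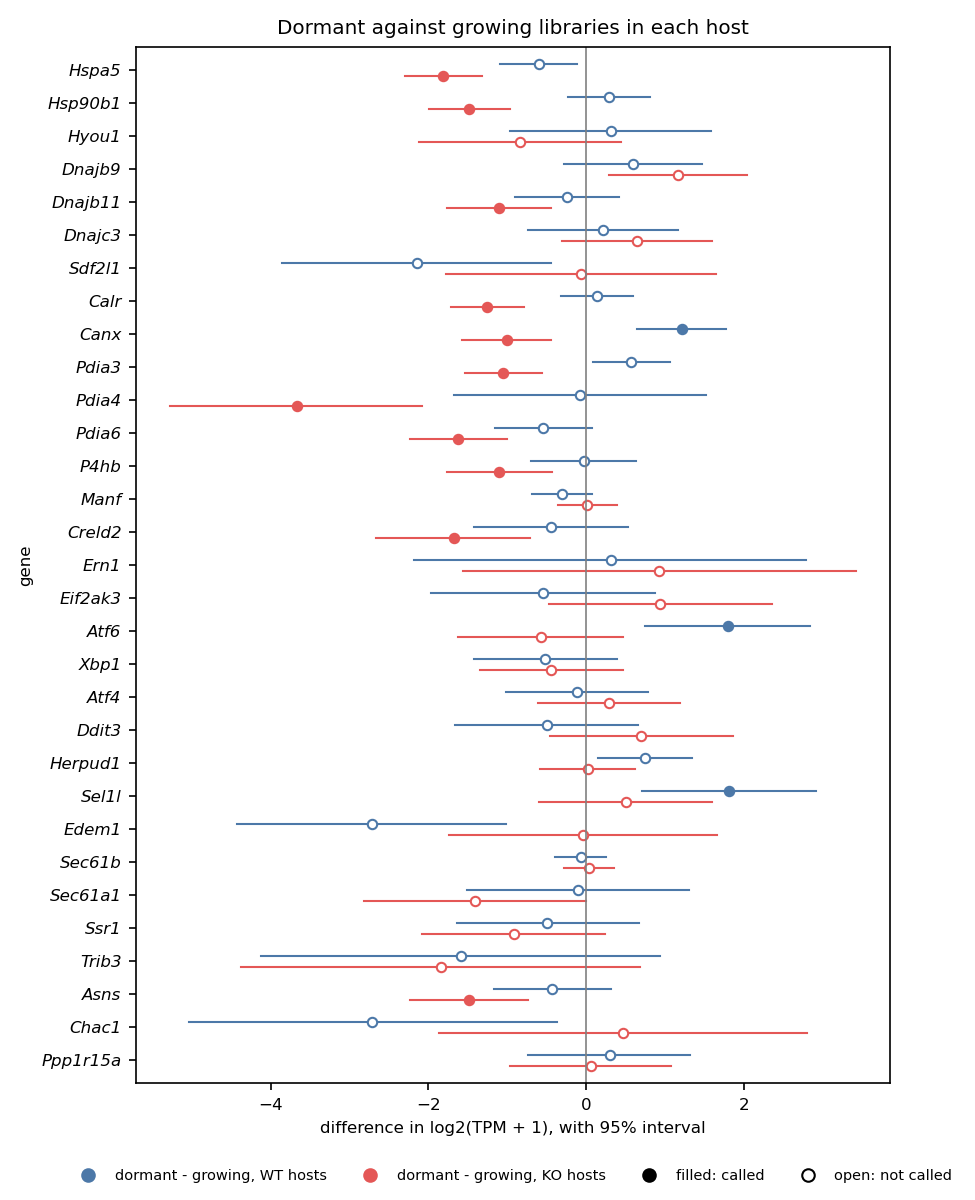
Difference between dormant and growing libraries in log2(TPM + 1), with 95% intervals, for the 31 tested genes in WT hosts (blue) and KO hosts (red). Filled points were called. In WT hosts Canx, Atf6 and Sel1l are filled to the right of 0, and in KO hosts 11 genes are filled to the left.

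A wider list of 113 other genes of the same pathways was read in the same fits, with 105 tested. Between dormant KO and dormant WT, 13 were called higher (12.4%) and 19 lower (18.1%), beside 12.9% and 9.39% of all genes, so that the share called higher is near the background. The split depended on the scaling, with 21 higher (20%) and 10 lower (9.52%) under median-ratio scaling, beside 17.6% and 6.15% of all genes. The Atf4 target genes held more calls than any other of the 5 groups of the list, with 6 higher and 10 lower of 30 tested. Of 18 further folding enzymes 2 were higher and 2 lower, of 21 translocation and signal processing genes 1 and 4, of 17 degradation genes 2 and 2, and of 19 sensors and transcription factors 2 and 1, groups too small to set against these shares. Nars, an asparaginyl-tRNA synthetase, was at 32.79, 36.10 and 13.21 TPM in the dormant KO libraries and 95.77, 228.17 and 137.65 TPM among dormant WT libraries (-2.48 ± 0.407, adjusted p 0.000967 by limma). Trib1, a pseudokinase related to Trib3, was at 9.99, 2.43 and 9.94 TPM for dormant KO against 107.20, 23.55 and 47.90 TPM (-2.77, adjusted p 0.00535). The largest rises were in genes at or near 0 in dormant WT. Pdia5, another isomerase, was at 9.49, 19.66 and 8.95 TPM in the dormant KO libraries and at 0.07, 0 and 0 TPM among dormant WT libraries (adjusted p 0.000168). Mars, a methionyl-tRNA synthetase that all cells use, was listed at 0 throughout dormant WT and reached 16.65, 42.78 and 1.64 TPM in the dormant KO libraries.

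Of the wider list, 0 of 105 genes were called between growing groups, and 11 had an unadjusted p under 0.05. Between dormant WT and growing WT, 9 were called lower (8.57%, beside 5.67% of all genes) and 0 higher (1.85% of all genes), among them Mthfd2 of mitochondrial folate metabolism, at 32.11, 27.99 and 31.94 TPM in the growing WT libraries and listed at 0 in dormant WT (adjusted p 0.000210). Between dormant KO and growing KO, 23 were called lower (21.9%, beside 9.48% of all genes) and 2 higher (1.9%, beside 8.31%), with 9 lower (8.57%, beside 5.07%) and 5 higher (4.76%, beside 11.4%) under median-ratio scaling, and 12 of the 30 Atf4 target genes were among the lower. Phgdh, the first enzyme of serine synthesis, was at 172.29, 144.23 and 143.07 TPM in the growing KO libraries and 6.55, 14.44 and 4.14 TPM in the dormant KO libraries (-4.19 ± 0.488, adjusted p 0.000136). The 2 higher were Creb3l1, an ER-bound transcription factor, at 4.79, 2.33 and 2.53 TPM against 0.27 TPM or less (1.91, adjusted p 0.00220), and Nupr1, a stress-induced nuclear protein, at 1145.34, 992.48 and 1121.34 TPM against 386.81, 305.03 and 410.54 TPM (1.57, adjusted p 0.00244).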

How the data were processed

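Libraries were prepared with Smart-seq2 by the methods, whereas a TruSeq kit is given in the labels. Per the labels and the study's methods, reads were trimmed with Cutadapt, aligned with STAR 2.5.2b to mm10 and quantified with RSEM. The submitters' processing notes name cutadapt 1.18 and RSEM 1.3.3, whereas the methods name other versions. The deposited values are TPM, made by the authors from RSEM estimates, with 12 columns matched to labelled samples and 30 further per-sample columns, some named as WT of library batch 2, not used since no labelled sample matched them. RSEM divides reads between similar or overlapping genes by an estimate. TPM keeps no depth, so no counting interval was computed.

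TPM was transformed to log2(TPM + 1), which understates changes of low genes. Genes at 1 TPM or more in at least 3 libraries (13002) were fitted with limma 3.58.1 in R 4.3.3 (called at an adjusted p of at most 0.05 and a difference of at least 1; eBayes with a trend, 1 mean per group, 8 residual degrees of freedom), two-sided. P-values were adjusted by Benjamini-Hochberg over all genes tested. The procedure was tested on simulated data. Gene coordinates are from GENCODE M21 on GRCm38, and promoter windows with their starts from RefSeq. Of the wider list, 3 symbols were matched by gene ID. All 32 genes could be named, with values in each library for Hspa5, Xbp1, Atf4, Ddit3, Atf6, Ern1, Eif2ak3 and the 4 largest called differences in each direction. Of the wider list the 2 largest called differences in each direction were named. Values of other genes were added after they were seen. The members and lists were chosen with earlier results of these data known.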

Additional observations from a re-analysis of the deposited data

Results flagged for a closer look

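A difference between hosts in the dormant against growing change passed the interaction test for 7 of the 31 genes. The log2 values were -2.37 for Atf6, -1.38 for Calr, -2.22 for Canx, -1.77 for Hsp90b1, -1.21 for Hspa5, -1.62 for Pdia3 and -3.60 for Pdia4. The same test passed for 14 genes of the wider list, 4 higher (3.81%, beside 6.18% of all genes) and 10 lower (9.52%, beside 3.91%), but 11 higher and 2 lower with median-ratio scaling (10.5% and 1.9%, beside 8.75% and 2.31%). Of the 4 of these that were chosen by size, the values were 3.24 for Pdia5 (adjusted p 0.00888 by limma), 2.88 for Mthfd2 (0.0293), -2.94 for Phgdh (0.0190) and -2.56 for Eprs (0.0338). Pdia5 was at 0.07 TPM or less and Mthfd2 listed at 0 in all 3 dormant WT libraries, so the sizes of these 2 depend on the pseudocount. The part of other cells in the dormant KO libraries was not tested.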

How the results depend on the processing

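Calls among the 31 genes were recounted under 24 alternatives, each count taking in genes not called before. Between dormant groups 10 genes were called, and the count was 5 with median-ratio scaling (4 of the 10, and Sdf2l1), 6 after rescaling without haemoglobin, surfactant, secretoglobin and mitochondrial genes, 5 in a fit of only the groups compared, 5 with array weights, and 6 to 11 when 1 library was left out (6 without dormant KO replicate 1). Of all genes 22.3% were called in this comparison as reported, 23.7% with median-ratio scaling, 22.3% after the rescaling, 12.9% with only the groups compared, 10.9% with array weights and 19.2% without dormant KO replicate 1. Between growing groups the count stayed at 0 in all of them. Between dormant WT and growing WT the count of 3 became 1 with a pseudocount of 0.1, and 0 with array weights, with the replicate block and at an adjusted p of at most 0.01. With 1 library left out the count was 0 to 5, at 0 without growing WT replicate 1 or 2. Without dormant WT replicate 1 it was 5, the same 3 higher and also Edem1 and Sdf2l1 lower; without dormant WT replicate 2 none of the 3 was called, and Trib3 alone was called, lower. Of all genes 7.51% were called here as reported, 9.14% with a pseudocount of 0.1, 2.38% with array weights, 3.19% with the block, 2.61% at the stricter adjusted p, 3.8% and 3.52% without growing WT replicate 1 or 2, and 14.8% and 9.66% without dormant WT replicate 1 or 2. Between dormant KO and growing KO the count of 11 became 4 with median-ratio scaling and 5 with quantile normalization (3 and 4 of the 11, and Dnajb9), 7 at an adjusted p of at most 0.01, and 7 to 13 with 1 library left out (7 without dormant KO replicate 3 or growing KO replicate 2); 17.8% of all genes were called as reported, 16.5% with median-ratio scaling, 17.1% with quantile normalization, 10.6% at the stricter adjusted p, and 15% and 13.5% without these 2 libraries. The interaction count of 7 became 3 with median-ratio scaling, 4 with quantile normalization, 4 after the rescaling, 3 with the replicate block and 3 at an adjusted p of at most 0.01, and 4 to 8 with 1 library left out (4 without dormant KO replicate 1, and without 5 of the growing libraries); all genes gave 10.1% as reported, 11.1% with median-ratio scaling, 8.25% with quantile normalization, 9.96% after the rescaling, 5.15% with the block and 4.73% at the stricter adjusted p.

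For the 105 genes of the wider list, each count is given with its share and then the share of all genes. The 32 calls between dormant groups (30.5%, 22.3%) became 13 in a fit of only the groups compared (12.4%, 12.9%), 16 with array weights (15.2%, 10.9%) and 18 at an adjusted p of at most 0.01 (17.1%, 14.4%), and ranged from 28 to 38 with 1 library left out. The count of 0 between growing groups became 1 with no filter, a minimum of 5 TPM, only the groups compared or no minimum difference, 2 with array weights, and 0 to 1 with 1 library left out; the share of all genes lay between 0.492% and 3.97%. The 9 calls between dormant WT and growing WT (8.57%, 7.51%) ranged from 6 to 21, the highest without dormant WT replicate 1 (20%, 14.8%). The 25 between dormant KO and growing KO (23.8%, 17.8%) became 14 with median-ratio scaling (13.3%, 16.5%) and 14 at an adjusted p of at most 0.01 (13.3%, 10.6%), and ranged from 16 without growing KO replicate 3 (15.2%, 13.9%) to 29. The 14 interaction calls (13.3%, 10.1%) became 5 with quantile normalization (4.76%, 8.25%), 9 with array weights (8.57%, 6.76%), 3 with the replicate block (2.86%, 5.15%) and 3 at an adjusted p of at most 0.01 (2.86%, 4.73%), and ranged from 6 without a growing WT library (5.71%, 6.69% to 6.91%) to 23 without dormant WT replicate 1 (21.9%, 15%). The cause was not tested, beyond fewer samples or a stricter threshold where these were the alternative.

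Differences that changed sign were all of genes without a call. Xbp1 between dormant groups was -0.02 with array weights, and its interaction -0.01; against growing KO it was 0.15 with median-ratio scaling and 0.01 with quantile normalization. Ern1 between dormant groups was -0.36 with a pseudocount of 5, -0.81 with quantile normalization and -0.12 with array weights, its interaction -0.18 and -0.43 for the first 2 of these, and dormant WT against growing WT -0.94 with a pseudocount of 0.1. Eif2ak3 under quantile normalization was -0.35 between dormant groups and 0.82 between dormant WT and growing WT. With 1 library left out, Xbp1 ran from -0.14 to 0.43 between dormant groups, -0.34 to 0.19 between growing groups and -0.12 to 0.45 in the interaction; Atf4 from -0.06 to 0.72 between dormant groups and -0.60 to 0.18 between dormant WT and growing WT; Ddit3 from -0.91 to 0.30 in the latter; and Ern1 from -0.77 to 1.79, -1.37 to 1.19 and -0.26 to 2.30 between dormant groups, between WT groups and in the interaction.

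Replicate numbers did not pair the samples, with correlations of same-numbered deviations between -0.014 and 0.021, although each dormant KO library matched best the growing KO library of its own number. With the block 8 genes were called between dormant groups, 0 between growing groups and 9 between dormant KO and growing KO. Depth is unknown, which limits every low value.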
